A study of Mus musculus with 6 samples.

Results

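The polyamine synthesis and breakdown genes followed here are 10 genes chosen by symbol: ornithine decarboxylase (Odc1), its antizymes and antizyme inhibitor (Oaz1, Oaz2, Azin1), and the enzymes that come after it (Amd1, Srm, Sms, Sat1, Smox, Paox). All 10 were among the 24434 symbols of the deposited count table, and all 10 passed the filter on low counts that left 16373 genes for testing. The table held poly(A) RNA sequencing of whole mouse kidney in 2 groups of 3 libraries. The first group is labelled db/db, mice homozygous for the diabetes allele of the leptin receptor, which become obese and diabetic, and the second db/m, heterozygous lean animals that serve as their controls. Both groups ate normal chow, with diabetes assigned to db/db in the series' design. The sources used here give no strain, age or sex. Whether the 3 libraries of a group stand for 3 animals was not stated either, and every p-value below therefore reflects variation among libraries that could be technical. Lepr, the gene that carries the db allele, stood at 5.66, 2.54 and 5.15 CPM (counts scaled to a common library size) in db/db libraries 1 to 3 and 2.94, 2.48 and 3.61 CPM in db/m libraries 1 to 3. The allele is known to change splicing of the long receptor form, so a total over the gene does not check the genotype labels.

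Polyamines are small, positively charged molecules that bind RNA, DNA and acidic proteins and are needed for translation and growth. Ornithine decarboxylase turns ornithine into putrescine, and spermidine synthase and spermine synthase then add aminopropyl groups donated by decarboxylated S-adenosylmethionine. Antizymes bind ornithine decarboxylase and deliver it to the proteasome, antizyme inhibitor releases it, and an acetyltransferase together with 2 oxidase genes, Smox and Paox, runs the pathway backwards. In mouse kidney Odc1 is known as an androgen-responsive gene of the proximal tubule, with more transcript in males than in females.

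Total counts were 27023129, 28038542 and 29868789 in db/db libraries 1 to 3 and 25937756, 35931140 and 27694351 in db/m libraries 1 to 3. At these depths 3 counts, the limit that a count of 0 allows, correspond to 0.0835 to 0.116 CPM. Markers of nephron segments were present in every library. Xist stayed between 0.201 and 0.365 CPM and the Y-linked Ddx3y between 17.4 and 26.1 CPM, a male pattern in each of the 6 libraries. Of the 5 adipocyte markers (Adipoq, Plin1, Cidec, Lep, Retn), the summed level was 55.6 CPM in db/db library 3 and 48.8 CPM in db/m library 3, against 0.674 to 3.31 CPM in the other 4 libraries. Calls among the 10 genes and their neighbours that end without both of those libraries are named.

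Promoter sequence is shown for the largest rise (Odc1), the only fall (Amd1) and the pair of antizyme genes, which rose together (Oaz1, Oaz2). Each run covers 250 bases before and 50 bases after the RefSeq start site on GRCm38.p6, read 5′ to 3′ on the gene's strand: chr12:17544623-17544922 on the plus strand for Odc1, chr10:40302139-40302438 on the minus strand for Amd1, chr10:80826406-80826705 on the plus strand for Oaz1 and chr9:65676298-65676597 on the plus strand for Oaz2. The build behind the counts was not stated, so these positions describe the reference only. Capitals mark matches, on either strand, to any of 4 motifs. The GC box was searched as GGGCGG and the E-box of Myc-type proteins as CACGTG. The TATA box was searched as TATAAA. The cyclic AMP response element was searched as TGACGTCA.
Odc1: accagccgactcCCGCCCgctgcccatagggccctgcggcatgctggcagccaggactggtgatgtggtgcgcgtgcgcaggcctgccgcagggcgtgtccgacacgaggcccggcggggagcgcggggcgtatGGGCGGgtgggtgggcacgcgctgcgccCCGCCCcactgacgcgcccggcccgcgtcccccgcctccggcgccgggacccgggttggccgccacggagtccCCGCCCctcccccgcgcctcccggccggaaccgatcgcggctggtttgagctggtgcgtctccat
Amd1: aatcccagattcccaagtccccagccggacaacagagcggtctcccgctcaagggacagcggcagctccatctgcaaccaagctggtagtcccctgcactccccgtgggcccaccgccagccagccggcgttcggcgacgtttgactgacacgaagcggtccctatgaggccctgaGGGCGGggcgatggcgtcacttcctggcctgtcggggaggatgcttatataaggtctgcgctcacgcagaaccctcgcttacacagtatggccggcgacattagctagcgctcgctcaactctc
Oaz1: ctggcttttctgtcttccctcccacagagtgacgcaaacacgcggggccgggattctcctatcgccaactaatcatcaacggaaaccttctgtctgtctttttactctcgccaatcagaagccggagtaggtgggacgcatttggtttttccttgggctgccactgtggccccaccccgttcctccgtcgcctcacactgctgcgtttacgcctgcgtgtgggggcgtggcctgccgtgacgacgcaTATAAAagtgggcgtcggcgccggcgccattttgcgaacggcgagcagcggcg
Oaz2: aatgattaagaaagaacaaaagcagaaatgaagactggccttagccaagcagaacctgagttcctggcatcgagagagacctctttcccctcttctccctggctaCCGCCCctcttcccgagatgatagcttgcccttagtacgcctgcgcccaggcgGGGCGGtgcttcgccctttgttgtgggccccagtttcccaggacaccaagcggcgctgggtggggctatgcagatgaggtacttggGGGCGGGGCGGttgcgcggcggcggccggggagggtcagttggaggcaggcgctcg
The Odc1 window was 78.0% G or C, against a median of 52.7% over 32851 RefSeq promoter windows of the same length. It held 4 GC boxes, starting at positions -238, -116, -88 and -15 from the start site, and none of the other 3 motifs. Amd1 held 1 GC box, Oaz1 a TATA box at position -3, and Oaz2 4 GC boxes, the last 2 overlapping. Of all windows, 35.7% held a GC box, 7.15% an E-box, 13.6% a TATA box and 1.79% a cyclic AMP response element. A promoter window was found for 8 of the 10 genes. Of the remaining windows, 1 of the 2 of Sms held an E-box. These matches describe letters in the window and not binding, and bases outside the windows were not searched.

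In the libraries labelled db/db, 5 of the 10 genes rose (Odc1, Srm, Sat1, Oaz1, Oaz2), 1 fell (Amd1) and 4 did not pass the test (Sms, Smox, Paox, Azin1). The test was edgeR's quasi-likelihood test with Benjamini-Hochberg adjustment over all 16373 genes, and a call needs an adjusted p below 0.05. By the same rule 24.0% of all tested genes were called, 13.1% as higher and 10.8% as lower in db/db. The groups did not overlap for 6 of the 10 genes, against 44.6% of all tested genes. The median log2 fold change was 0.38 over the 10 genes and -0.06 over all genes tested. Odc1 changed by far more than the rest: it ranked 69th among the 16373 genes by size of rise, whereas the other 4 rises lay between 0.40 and 0.48 on the log2 scale.

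**Figure D1:**
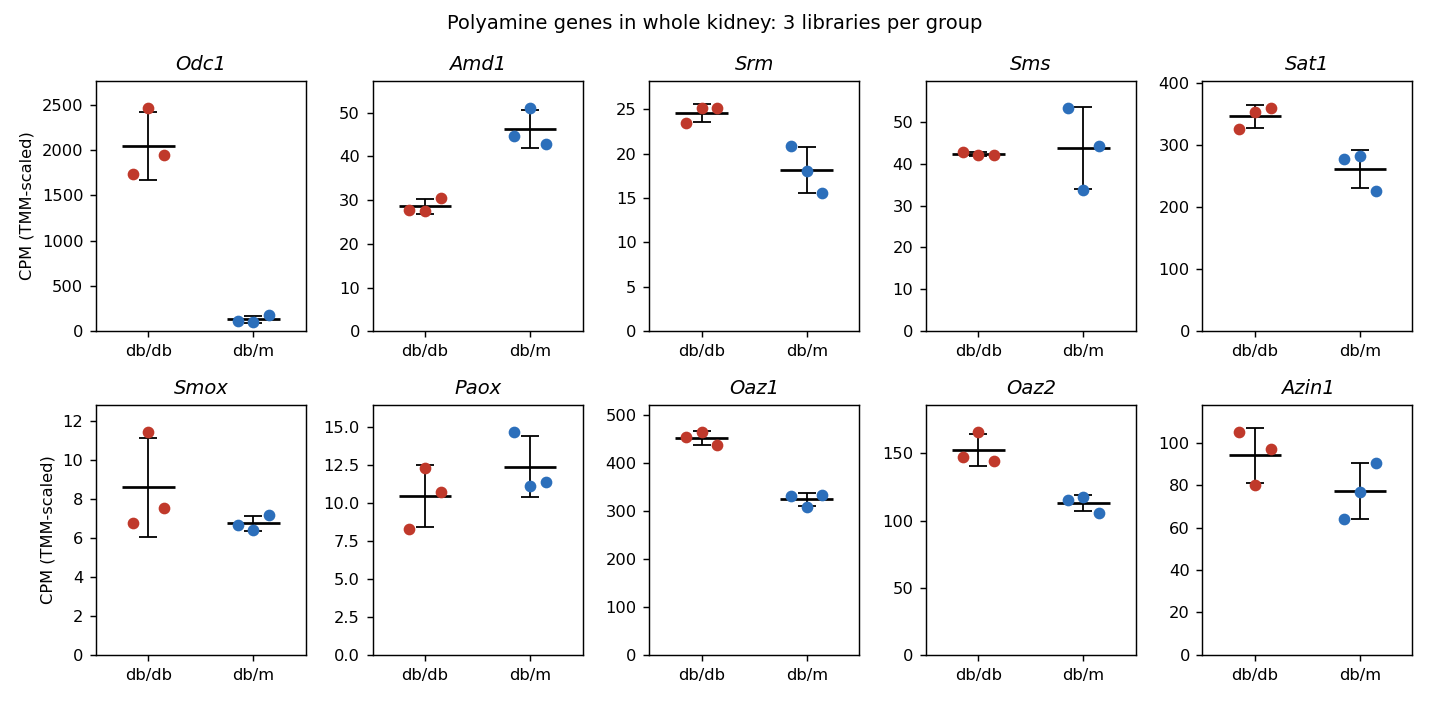
Level of each of the 10 genes in CPM scaled by TMM library sizes (vertical axes, each starting at 0) in 3 db/db libraries (red) and 3 db/m libraries (blue). Points are libraries in replicate order, horizontal lines means and error bars SD; Odc1, Amd1, Srm, Sat1, Oaz1 and Oaz2 show no overlap between the groups, and Sms, Smox, Paox and Azin1 do.

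The count of rises among the smaller changes rested on the choice of scaling and libraries. Leaving out db/db library 1, 2 or 3 or db/m library 2 or 3 left 3 genes called higher, with Srm and Sat1 lost each time, and leaving out db/m library 1 left 5. With total counts only as the scaling, the median over all genes moved by -0.26 on the log2 scale, the whole table gave 1072 higher and 4883 lower calls in place of 2151 and 1774, and of the 5 rises Odc1 alone passed.

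Odc1, the rate-limiting enzyme of the pathway, stood at 1741, 2469 and 1943 CPM in db/db libraries 1 to 3, against 113, 101 and 179 CPM in db/m libraries 1 to 3. The lowest db/db library lay far above the highest db/m library, which was db/m library 3. The means were 2051 ± 376 CPM in db/db and 131 ± 42.1 CPM in db/m (SD, n = 3 each), and the log2 fold change was 3.97 (SE 0.26, 95% interval 3.35 to 4.59, edgeR adjusted p = 0.000227), a 15.7-fold difference. As a share of all counts, Odc1 took 0.161% (95% Clopper-Pearson interval 0.159% to 0.162%), 0.222% (0.220% to 0.224%) and 0.178% (0.177% to 0.180%) in db/db libraries 1 to 3. The corresponding shares in db/m libraries 1 to 3 were 0.0119% (0.0115% to 0.0124%), 0.0112% (0.0108% to 0.0115%) and 0.0201% (0.0196% to 0.0206%). These intervals cover counting error only. In whole kidney, more cells of a type and more RNA per cell cannot be told apart. Under all 16 alternative settings Odc1 remained called, with log2 fold changes of 3.70 to 4.30.

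Amd1, which encodes S-adenosylmethionine decarboxylase and so supplies the aminopropyl donor, was lower. It stood at 27.8, 27.5 and 30.6 CPM in db/db libraries 1 to 3, against 44.7, 51.1 and 42.8 CPM in db/m libraries 1 to 3. Every db/db library was below every db/m library. The log2 fold change was -0.69 (SE 0.10, 95% interval -0.92 to -0.46, edgeR adjusted p = 0.00373), and the call held under all 16 alternatives, between -0.95 and -0.61. Amd2, a near-identical copy of Amd1, fell as well, at 7.18, 8.60 and 7.85 CPM in db/db and 14.3, 18.8 and 13.7 CPM in db/m libraries 1 to 3 (log2 fold change -0.99, SE 0.16, edgeR adjusted p = 0.00647). How the authors' counting divided reads between Amd1, Amd2 and the 7 Amd pseudogenes in RefSeq, none with a row among the symbols used here, was not stated. Summed over Amd1 and Amd2, a total that does not depend on how reads were split between them, the level was 35.0, 36.1 and 38.4 CPM in db/db libraries 1 to 3 and 59.0, 69.9 and 56.5 CPM in db/m libraries 1 to 3.

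The aminopropyl transferases differed from each other in what passed the test. Srm, spermidine synthase, stood at 23.4, 25.1 and 25.1 CPM in db/db libraries 1 to 3, against 20.8, 18.0 and 15.6 CPM in db/m libraries 1 to 3. The groups did not overlap, but db/m library 1 came close to the lowest db/db library. Its log2 fold change was 0.44 (SE 0.12, 95% interval 0.15 to 0.73, edgeR adjusted p = 0.0415). The call on Srm ended under 10 of the 16 alternatives, among them each of the db/db libraries left out (edgeR adjusted p = 0.0757, 0.105 and 0.113 without db/db libraries 1 to 3), db/m library 2 left out (0.116), db/m library 3 left out (0.0811) and the filter on low counts removed (0.0522). Without both db/db library 3 and db/m library 3 it was 0.187 by edgeR, at a log2 fold change of 0.32.

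Sms, spermine synthase on the X chromosome, stood at 42.9, 42.0 and 42.2 CPM in db/db libraries 1 to 3, against 53.4, 33.7 and 44.3 CPM in db/m libraries 1 to 3. The db/db libraries lay close together, inside the wider range of the db/m libraries. The log2 fold change was -0.05 (SE 0.16, edgeR adjusted p = 0.85) with a 95% interval of -0.42 to 0.32, and its sign turned to 0.13 without db/m library 1. The coefficient of variation of Sms was 1.05% in db/db and 22.5% in db/m, a description that was not tested.

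Of the genes that run polyamines back towards putrescine, Sat1 was higher and neither oxidase gene passed the test. Sat1 encodes spermidine/spermine N1-acetyltransferase, which marks polyamines for oxidation or export. It stood at 325, 352 and 359 CPM in db/db libraries 1 to 3, against 277, 281 and 226 CPM in db/m libraries 1 to 3. All db/db libraries were above all db/m libraries, with db/m library 3 lowest. The log2 fold change was 0.40 (SE 0.11, 95% interval 0.15 to 0.66, edgeR adjusted p = 0.0338). This call ended under 9 of 16 alternatives, including each db/db library left out (edgeR adjusted p = 0.062, 0.0907 and 0.107 without db/db libraries 1 to 3), db/m library 2 left out (0.0568) and db/m library 3 left out (0.0519). Without both db/db library 3 and db/m library 3 the log2 fold change was 0.28 and the edgeR adjusted p 0.162.

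Smox, spermine oxidase, stood at 6.74, 11.5 and 7.56 CPM in db/db libraries 1 to 3, against 6.65, 6.40 and 7.18 CPM in db/m libraries 1 to 3. Only db/db library 2 stood well above the db/m libraries, and the groups overlapped (log2 fold change 0.35, 95% interval -0.17 to 0.87, edgeR adjusted p = 0.284). Paox, the peroxisomal oxidase that cleaves acetylated polyamines, stood at 8.27, 12.3 and 10.7 CPM in db/db libraries 1 to 3, against 14.7, 11.1 and 11.3 CPM in db/m libraries 1 to 3. Here too the groups overlapped (log2 fold change -0.25, 95% interval -0.69 to 0.20, edgeR adjusted p = 0.371). In GENCODE M21 Paox overlaps Echs1 on the opposite strand, and whether counting used the strand was not stated, so reads of the overlap cannot be assigned with certainty. Sat2, a paralog of Sat1 whose protein acts on thialysine rather than on polyamines, was higher at 21.3 ± 3.07 CPM in db/db and 12.9 ± 2.50 CPM in db/m (SD, n = 3 each; log2 fold change 0.73, SE 0.17, edgeR adjusted p = 0.0232). That call ended under 6 of 16 alternatives, among them db/db library 1 or 3 or db/m library 2 or 3 left out.

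Both antizyme genes rose. Oaz1, the main antizyme gene, whose translation needs a ribosomal frameshift stimulated by polyamines, stood at 455, 465 and 437 CPM in db/db libraries 1 to 3, against 331, 309 and 332 CPM in db/m libraries 1 to 3. Its groups lay well apart, with coefficients of variation of 3.14% in db/db and 4.06% in db/m. The log2 fold change was 0.48 (SE 0.08, 95% interval 0.30 to 0.67, edgeR adjusted p = 0.00605). Oaz2, a second antizyme gene, stood at 148, 166 and 144 CPM in db/db libraries 1 to 3, against 115, 118 and 106 CPM in db/m libraries 1 to 3. All db/db libraries were above all db/m libraries (log2 fold change 0.43, SE 0.09, 95% interval 0.22 to 0.64, edgeR adjusted p = 0.0138). Both calls ended with total counts only (log2 fold change 0.22 and adjusted p = 0.0567 for Oaz1, 0.17 and 0.135 for Oaz2), a setting whose median over all genes was -0.32. The Oaz2 call also ended without both db/db library 3 and db/m library 3, at a log2 fold change of 0.43 and an edgeR adjusted p of 0.0732.

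Of the antizyme inhibitor genes, Azin1 did not pass and its paralog Azin2 fell. Azin1, an inactive relative of ornithine decarboxylase that binds antizyme in its place, stood at 105, 79.9 and 97.0 CPM in db/db libraries 1 to 3, against 64.0, 76.8 and 90.6 CPM in db/m libraries 1 to 3. The groups overlapped, since db/db library 2 lay below db/m library 3 (log2 fold change 0.29, SE 0.15, 95% interval -0.07 to 0.64, edgeR adjusted p = 0.206). Azin2, the second antizyme inhibitor gene, fell, at 6.70, 7.25 and 7.70 CPM in db/db and 11.6, 11.9 and 10.6 CPM in db/m libraries 1 to 3 (log2 fold change -0.65, SE 0.13, edgeR adjusted p = 0.0135). That call ended without db/m library 2 (edgeR adjusted p = 0.0562). The third antizyme gene, Oaz3, had 0 counts in all db/db libraries and 3 counts in db/m library 1 alone, and was not tested.

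**Figure D2:**
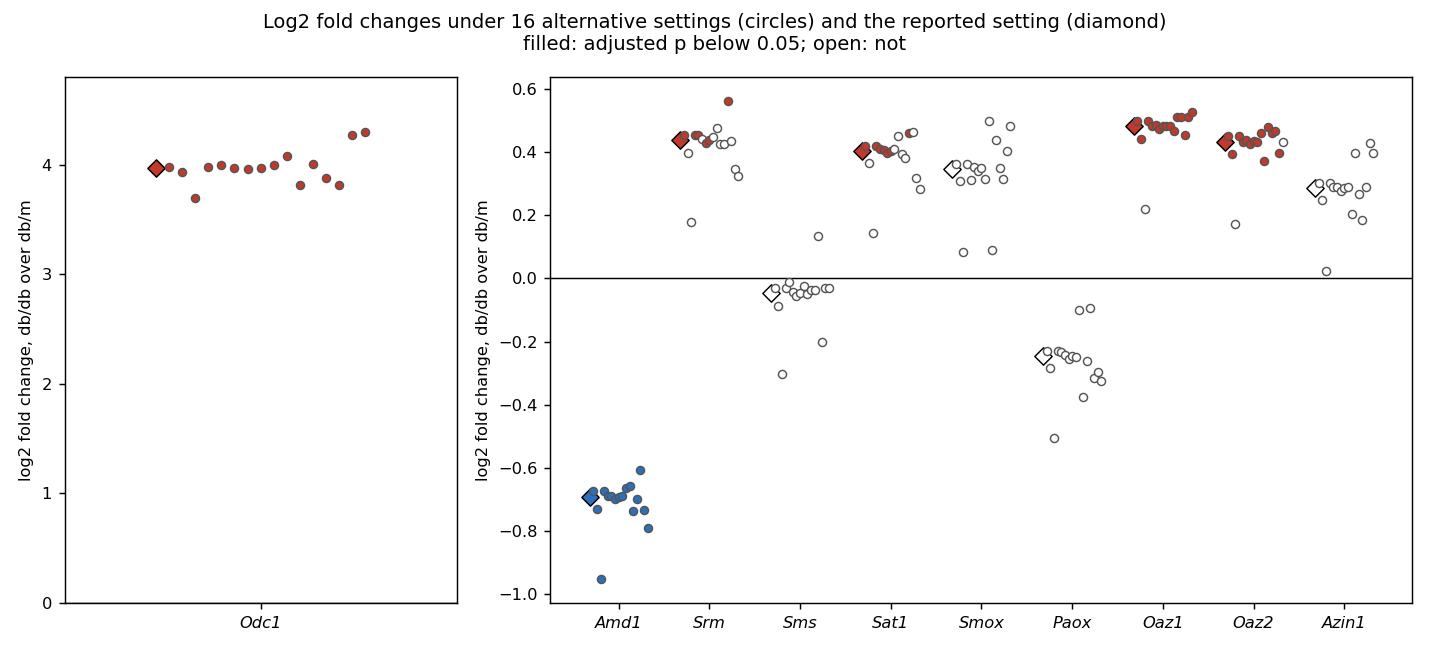
Log2 fold change, db/db over db/m, of Odc1 (left) and the other 9 genes (right) in the reported comparison (diamonds) and under 16 alternative settings (circles), filled where the adjusted p is below 0.05. Odc1 stays between 3.70 and 4.30 and Amd1 between -0.95 and -0.61, filled throughout, whereas the points of Srm and Sat1 are open under 10 and 9 settings.

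The order of the genes by level per length changed at the top. Dividing CPM by the merged exon length in GENCODE M21 puts genes on one scale, although the gene models behind the counts were not stated. Odc1 was at 929 ± 170 CPM per kb in db/db, the highest of the 10 genes and 55th of 15084 genes with a length, and at 59.4 ± 19.1 CPM per kb in db/m, 3rd of the 10 and 1039th of all (SD, n = 3 each). Oaz1 was at 421 ± 13.2 CPM per kb in db/db and 302 ± 12.3 in db/m, Sat1 at 292 ± 15.3 and 221 ± 26.1, and Oaz2 at 75.0 ± 5.86 and 55.6 ± 3.07, each with db/db given first. In db/m, Odc1 and Oaz2 were neighbours whose ranges overlapped, at 45.9 to 81.2 and 52.1 to 57.9 CPM per kb. Azin1, Srm, Sms and Amd1 formed a middle group between 8.59 and 20.9 CPM per kb in db/db and between 9.06 and 18.0 CPM per kb in db/m. Within it Azin1 overlapped Srm in db/db, and Azin1, Amd1, Srm and Sms overlapped their neighbours in db/m. Smox and Paox were lowest and overlapped each other in db/db but not in db/m, at 2.77 ± 0.812 and 2.24 ± 0.435 CPM per kb in db/db and 2.18 ± 0.128 and 2.66 ± 0.43 CPM per kb in db/m.

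**Figure D3:**
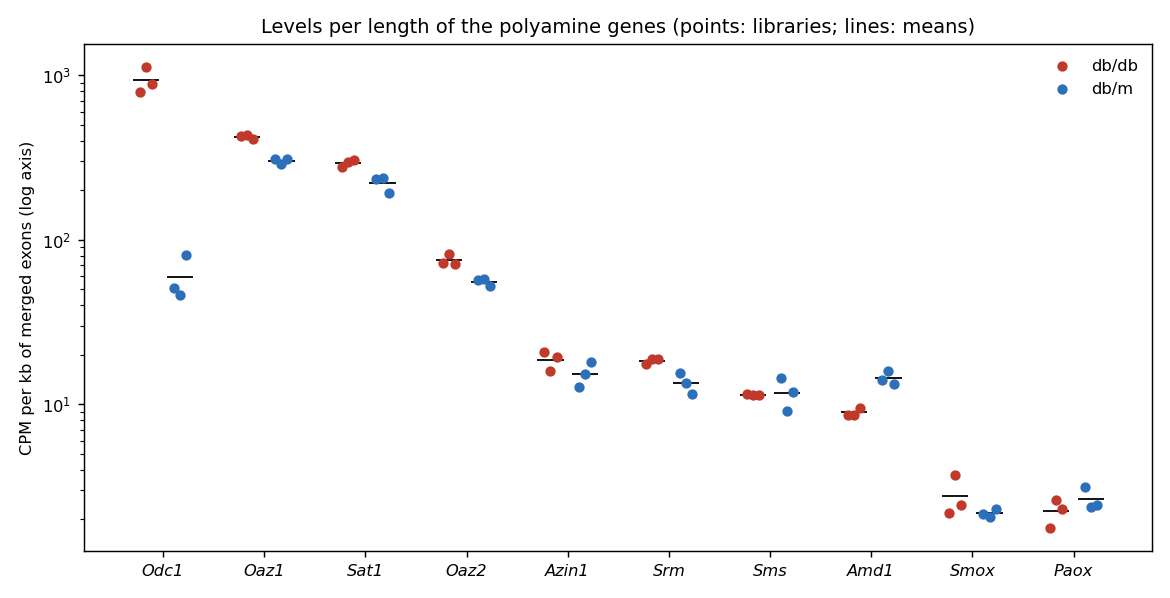
Level of the 10 genes in CPM per kb of merged exons (log axis), with db/db libraries in red to the left and db/m libraries in blue to the right; points are libraries and lines are means. Odc1 lies above Oaz1 and Sat1 in every db/db library and below both in every db/m library.

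The transcript balance within each library differed between the groups. Odc1 made up 48.6%, 56.1% and 51.0% of the per-length level summed over the 10 genes in db/db libraries 1 to 3, against 7.17%, 6.68% and 11.7% in db/m libraries 1 to 3. The ratio of Odc1 to the sum of Oaz1 and Oaz2, the enzyme's transcript against those of its inhibitors, was 1.59, 2.17 and 1.84 in db/db libraries 1 to 3 and 0.140, 0.133 and 0.224 in db/m libraries 1 to 3. Odc1 was 91.0, 130.1 and 92.2 times Amd1 per length in db/db libraries 1 to 3, and 3.65, 2.88 and 6.08 times in db/m libraries 1 to 3. None of these ratios overlapped between the groups. The ratio of Srm to Sms was 1.52, 1.66 and 1.66 in db/db libraries 1 to 3 and 1.08, 1.49 and 0.976 in db/m libraries 1 to 3, so its groups stood only just apart. These ratios were not tested.

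Genes around the pathway were taken from lists chosen with earlier results of these data known, so their counts are a description. Of the 48 tested genes in 7 lists, 13 rose and 10 fell, or 47.9% called. The share over all tested genes, to be set beside the count of each list, was 24.0%. The paralogs described above gave 1 rise (Sat2) and 2 falls (Azin2, Amd2) among 3 tested. Without both db/db library 3 and db/m library 3, Sat2, Azin2, Ass1, Aldh9a1, Slc18b1, Atp13a2, Slc25a15, Slc7a2, Ahcy, Eif5a and Max lost their calls, with edgeR adjusted p-values between 0.0515 for Max and 0.219 for Aldh9a1.

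Among 8 tested enzymes of arginine, ornithine and diamine metabolism 2 rose and 2 fell. Oat, the mitochondrial ornithine aminotransferase that draws ornithine away from or back into the pathway, was at 121.2, 98.0 and 108.6 CPM in db/db libraries 1 to 3, against 370.0, 379.9 and 320.4 CPM in db/m libraries 1 to 3. The groups lay far apart (log2 fold change -1.71, SE 0.11, edgeR adjusted p = 0.000226), under all 16 alternatives as well. Gatm, which joins arginine and glycine and releases ornithine on the way to creatine, was also lower, at 261, 247 and 207 CPM in db/db libraries 1 to 3 and 689, 598 and 469 CPM in db/m libraries 1 to 3 (log2 fold change -1.29, SE 0.16, edgeR adjusted p = 0.00216). Ass1, which makes the precursor of arginine, rose by 0.59 on the log2 scale (SE 0.17, edgeR adjusted p = 0.0415), and Aldh9a1, which oxidises the aminobutyraldehyde derived from putrescine, by 0.51 (SE 0.15, edgeR adjusted p = 0.044). Both of these calls ended under 9 of 16 alternatives, including any db/db library left out and db/m library 2 or 3 left out. Aoc1, diamine oxidase, was at 2.51 ± 1.06 CPM in db/db and 6.57 ± 3.53 CPM in db/m without passing (edgeR adjusted p = 0.081). Arg1, a liver-type arginase, had 8, 3 and 3 counts in db/db libraries 1 to 3 and 0 in the db/m libraries, too few to test, and Arg2, the mitochondrial arginase, overlapped between groups (log2 fold change -0.64, 95% interval -1.77 to 0.50).

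Transporters of polyamines and of their precursors gave 2 rises and 4 falls among 12. Slc22a2, an organic cation transporter of the proximal tubule's basolateral side, was at 410.5, 399 and 416 CPM in db/db libraries 1 to 3, against 104, 92.6 and 128 CPM in db/m libraries 1 to 3. Its relative Slc22a3 moved the other way from a low level, at 0.361, 0.277 and 0.548 CPM in db/db and 2.62, 2.13 and 2.67 CPM in db/m libraries 1 to 3. Their log2 fold changes were 1.92 (SE 0.13, edgeR adjusted p = 0.000226) and -2.62 (SE 0.33, edgeR adjusted p = 0.00228), and both held under all 16 alternatives. Slc18b1, a vesicular polyamine transporter, rose with a log2 fold change of 0.64 (SE 0.13, edgeR adjusted p = 0.0146), while Atp13a2, the lysosomal polyamine exporter, had a log2 fold change of -0.54 (SE 0.11, edgeR adjusted p = 0.0134), which ended without db/m library 2 (0.053). Slc25a15, the mitochondrial ornithine carrier, had -0.38 (SE 0.08, edgeR adjusted p = 0.0172) and Slc7a2, a carrier of cationic amino acids, -0.63 (SE 0.19, edgeR adjusted p = 0.0476). The Slc7a2 call ended when any library was left out, and the Slc25a15 call without db/db library 1 or 3 or db/m library 2.

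In the methionine cycle and salvage list 1 of 8 tested genes was called (12.5%), and in the hypusine list 1 of 4 (25%), beside 24.0% of all tested genes. The methionine gene that rose was Ahcy, which clears S-adenosylhomocysteine (437 ± 16.4 CPM in db/db and 320 ± 23.4 CPM in db/m, SD, n = 3 each; log2 fold change 0.45, SE 0.09, edgeR adjusted p = 0.0114), a call that ended without db/db library 3 (0.0505). The other 7 did not pass. In the hypusine list, which covers the modification of translation factor eIF5A with a group taken from spermidine, Eif5a itself was higher at 570 ± 14.8 CPM in db/db and 459 ± 15.8 CPM in db/m (SD, n = 3 each; log2 fold change 0.31, SE 0.08, edgeR adjusted p = 0.0269), and neither Dhps nor Dohh passed. The Eif5a call ended when any library other than db/m library 1 was left out. Proteins of the Myc network are known to act on the Odc1 gene. Of 4 genes of this network, Max was lower (log2 fold change -0.41, SE 0.11, edgeR adjusted p = 0.0355) and Myc did not pass (-0.37, 95% interval -0.92 to 0.18, edgeR adjusted p = 0.28). Mycn and Mycl did not pass either, with log2 fold changes of 0.99 and -0.56 (edgeR adjusted p = 0.0582 and 0.166). The call on Max ended without db/db library 1 or 2 or db/m library 1 or 2.

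**Figure D4:**
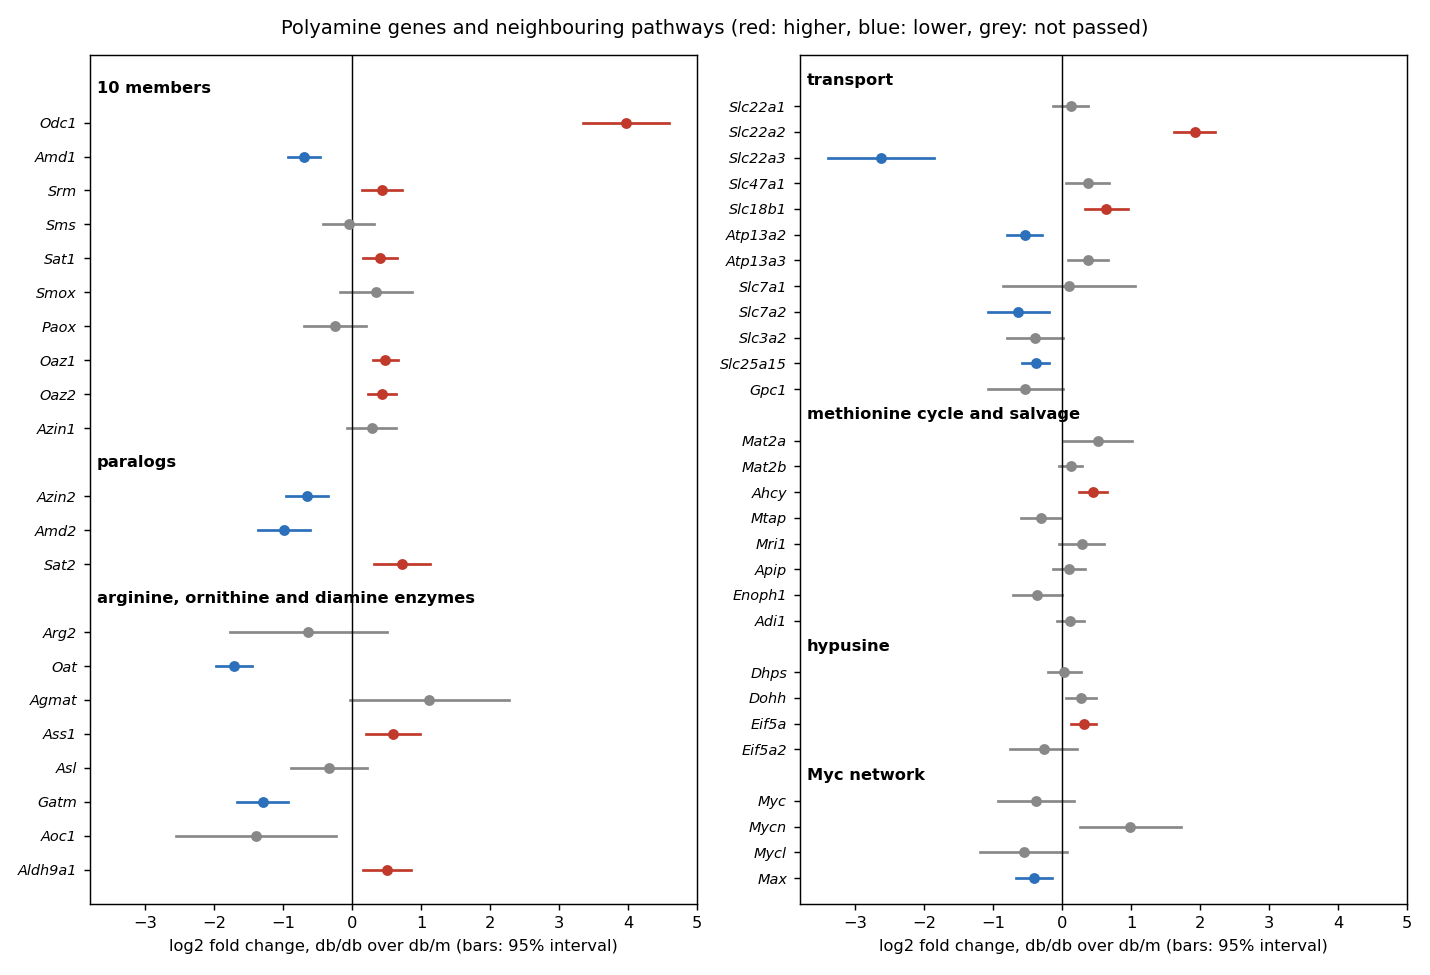
Log2 fold change, db/db over db/m (horizontal axes), with 95% intervals for the 10 genes and 39 tested genes of neighbouring pathways. Red marks genes called higher, blue lower and grey not passed; Odc1 lies apart at 3.97, and Oat, Gatm and Slc22a3 are the lowest called genes of the plot at -1.71, -1.29 and -2.62.

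Genes known as androgen-responsive or male-biased in mouse kidney mostly rose as Odc1 did. Of 9 listed, 6 rose, beside 13.1% of all tested genes called higher. Cyp4a12a and Gusb did not pass (log2 fold change 0.93 and 0.64, edgeR adjusted p = 0.053 and 0.0545), and 1 is not reported here. The rises were those of Kap, Slco1a1, Cyp4b1, Cyp7b1, Slc7a13 and Cyp2e1, by 2.42 to 10.33 on the log2 scale. Kap, a kidney androgen-regulated protein gene, was at 33061, 35459 and 36390 CPM in db/db libraries 1 to 3 and 292, 231 and 1400 CPM in db/m libraries 1 to 3 (log2 fold change 5.77, SE 0.78, edgeR adjusted p = 0.00296). The groups lay far apart, with db/m library 3 well above the other db/m libraries. Of the 6 genes that rose, Kap, Cyp4b1, Cyp7b1 and Slc7a13 were highest among the db/m libraries in db/m library 3, as Odc1 was. Cyp2e1 (637, 248 and 386 CPM in db/m libraries 1 to 3) was highest in db/m library 1. Slco1a1 had only 11, 7 and 8 counts in db/m libraries 1 to 3 (0.400, 0.177 and 0.258 CPM), too few to order them. The order within db/db was mixed. Odc1, Cyp4b1, Cyp2e1 and Slco1a1 were highest in db/db library 2, and Kap in db/db library 3. Cyp7b1 (262, 104 and 209 CPM) and Slc7a13 (791, 543 and 688 CPM in db/db libraries 1 to 3) were lowest in db/db library 2. Without db/m library 3 the log2 fold changes of Kap, Cyp7b1 and Slc7a13 were 7.07, 4.88 and 4.42 in place of 5.77, 4.13 and 3.63.

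Genes that mark S3, the last stretch of the proximal tubule, were higher in db/db, as Odc1 was. All 6 listed (Slc22a7, Slc7a13, Slc5a8, Atp11a, Acsm3, Cyp7b1) were called higher, beside 13.1% of all tested genes. Slc7a13 and Cyp7b1 are also in the androgen list. The summed level of the 6 was 3098 to 4169 CPM in db/db and 345 to 573 CPM in db/m, with db/m library 3 highest of its group. Slc22a7 alone was highest in db/m library 2, at 1.34, 13.1 and 5.06 CPM in db/m libraries 1 to 3. In db/db the sum was 4169, 3098 and 3828 CPM in libraries 1 to 3. It was thus lowest in db/db library 2, where Odc1 was highest. In the S1 and S2 list 1 of 7 rose (Slc22a6) and 1 fell (Slc5a12). Summed levels were 10164 to 12747 CPM in db/db and 7163 to 10066 CPM in db/m. Most of this sum was Slc34a1 (6956 CPM in db/db and 4927 CPM in db/m on average), which did not pass. Slc5a2, Slc4a4, Lrp2 and Cubn did not pass either, with log2 fold changes of -0.36, -0.40, 0.27 and 0.04. Summed markers of the distal convoluted and connecting tubule were 857 to 934 CPM in db/db and 1225 to 1920 CPM in db/m, and 3 of the 5 (Slc12a3, Pvalb, Trpm6) were called lower. Summed markers of collecting duct principal cells were 464 to 638 CPM in db/db and 807 to 1255 CPM in db/m, most of it Aqp2 (338 CPM in db/db and 721 CPM in db/m on average), the 1 marker of 5 called. Aqp3, Scnn1g, Fxyd4 and Scnn1b did not pass, with log2 fold changes of -0.30, -0.22, -0.51 and 0.17. The part of these differences in the values of Odc1 or of the other 9 genes was not tested. Summed leukocyte markers ranged from 337 to 386 CPM in db/db and from 158 to 3093 CPM in db/m. Nearly all of that range was Cd74, at 129, 3037 and 1445 CPM in db/m libraries 1 to 3. None of the 6 markers was called. The log2 fold change was positive for Csf1r (0.75) and negative for Ptprc, Cd74, Adgre1, Cd3e and Cd79a. Cyp11b1 and Cyp21a1, steroid enzymes of the adrenal gland, had 0 counts in every library. Of the same list, Cyp11a1 had 11 and 7 counts in db/m libraries 2 and 3 and 0 in the others. Star was at 3.29 to 6.11 CPM over all 6 libraries and did not pass.

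By distance between centred log2 CPM profiles over the 6 libraries, the genes nearest to Odc1 among 11044 candidates were Ugt2b38, Cd36, Ugt2b5, Pzp and Akr1c14. Their root mean square distances were 0.20, 0.28, 0.31, 0.40 and 0.42 on the log2 scale. Ugt2b38, a glucuronosyltransferase gene, was at 916, 1113 and 1056 CPM in db/db libraries 1 to 3 and 68.6, 40.2 and 88.2 CPM in db/m libraries 1 to 3. Cd36, a fatty acid uptake receptor, was at 425, 375 and 485 CPM in db/db libraries and 23.4, 22.6 and 29.0 CPM in db/m libraries. With 2 groups this far apart such likeness is mostly the difference between them: 115 of the candidates had a Pearson r above 0.99 with Odc1 over 6 libraries that share the same depths and scaling. Within the db/m group, Ugt2b38, Cd36, Ugt2b5 and Pzp were highest in db/m library 3, as Odc1 was, and Akr1c14 was not. Within db/db, Ugt2b38 and Pzp were highest in db/db library 2, as Odc1 was. Cd36, Ugt2b5 and Akr1c14 were lowest in that library. Cd36 and Ugt2b5 were highest in db/db library 3 and db/m library 3, the 2 libraries with the highest summed adipocyte markers. The part of adipocytes in these values was not tested. Ugt2b38 and Ugt2b5 belong to a multigene family whose members can share reads, which makes the count of each uncertain.

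**Figure D5:**
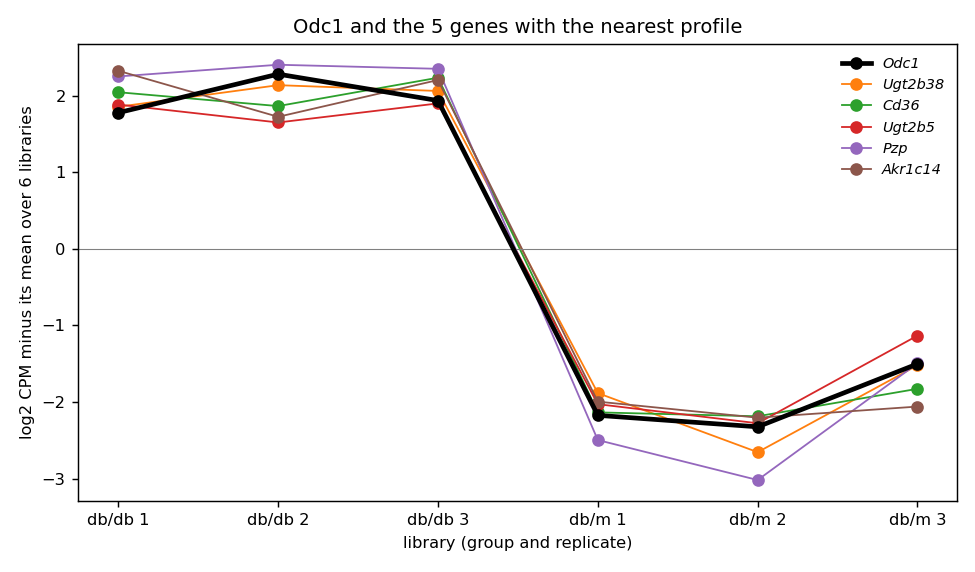
Log2 CPM minus its mean over the 6 libraries (vertical axis) for Odc1 (thick black line) and the 5 genes with the smallest distance to it, by library (horizontal axis, db/db libraries first). All 6 genes lie above 1 in db/db and below -1 in db/m.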

How the data were processed

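Poly(A) RNA of whole kidney was sequenced from strand-specific libraries, per the labels' protocols. The submitters' processing notes name fastp, FastQC, HISAT2, SAMtools, StringTie and DESeq2 without versions or roles. The sources used here give no build, annotation or counting rules. The authors deposited raw counts per gene symbol, 1 column per library. Replicates differed by more than counting noise, at 15.9 to 59.5 chi-square units per degree of freedom, so none was merged. A count of 2 occurs 4164 times in the table and a count of 1 occurs 1318 times. Counts may thus not be single independent fragments, and intervals from them may be too narrow.

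Genes were filtered with filterByExpr, scaled with TMM (factors 0.901 to 1.12) and compared with edgeR 4.0.16 (glmQLFit and glmQLFTest, no covariates, R 4.3.3), adjusted over 16373 genes. CPM uses TMM-scaled library sizes; the SE is the log2 fold change divided by the square root of F. Counts were also simulated for the comparison of db/db with db/m (16051 genes), with changes set in 200 genes. On these the test called 20.4% of 1.5-fold, 58.3% of 2-fold, 98% of 4-fold and 100% of 8-fold changes. Of 141 calls 4 were false. Gene names and promoters are from RefSeq GRCm38.p6, in which all 10 members were found, and exon lengths from GENCODE M21.

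The members and lists were chosen with earlier results of these data known. The text names the 10 members, every called gene of the 7 context lists but 1 that is not reported here, and the 5 profiles nearest to Odc1 with an average log2 CPM of at least 2. Aoc1, Arg1, Arg2, Oaz3, Dhps, Dohh, Myc, Mycn, Mycl, Cyp4a12a and Gusb were added after their values were seen. Alternative scalings were DESeq2's size factors, the upper quartile and total counts. Alternative tests were the Wald test of DESeq2 1.42.0 and limma-voom (limma 3.58.1). Filters were none, or 1 CPM and 10 counts in 3 libraries. Further fits dropped mitochondrial genes, used replicate number as a block, or left out each library, and 1 added after seeing the data left out db/db library 3 and db/m library 3 together.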

Additional observations from a re-analysis of the deposited data

How the results depend on the processing

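Over 16 alternatives the 10 genes gave 160 log2 fold changes. Of these 137 kept their direction and side of the threshold, 22 lost the call and 1 changed direction, Sms, which ranged from -0.20 to 0.13 with 1 library left out and was positive without db/m replicate 1. Odc1 and Amd1 were called under all 16. Scaling by total counts called 1072 genes higher and 4883 lower over the whole table, 1 member higher, and 7 context genes higher and 15 lower. Upper quartile scaling left 3 members higher. Leaving out db/db replicate 3 and db/m replicate 3 together left 1052 genes higher and 660 lower, 2 members higher, and 7 context genes higher and 5 lower. Leaving out 1 library at a time gave 1374 to 2011 genes higher and 851 to 1523 lower, 3 to 5 members higher, and 8 to 14 context genes higher and 4 to 9 lower. Fewer libraries enter those fits; otherwise the cause was not tested. Equal replicate numbers do not state that samples are paired. Deviations of libraries with the same number correlated at -0.15, 0.06 and 0.14, and those with unlike numbers between -0.30 and 0.24. With 3 libraries per group these values cannot decide whether samples were paired. With the replicate number as a block 1313 genes were higher and 973 lower, 3 members were higher, and 5 context genes were lower. Groups of 3 libraries limit the precision, and the 4 smaller rises were below 1.5-fold. In counts simulated with 200 changed genes, 20.4% of 1.5-fold changes were called. That simulation gave 141 calls and the table itself 3925, so its share does not carry over to these genes.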
